A study of Caenorhabditis elegans with 4 samples.

Results

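The regions described here are the 342 CEH-16 binding peaks that lie on chromosome V of Caenorhabditis elegans, out of 1848 peaks in a combined list for the whole genome. They were taken by position alone, as every row of that list placed on V, and the other 1506 peaks lie on the other 5 chromosomes. CEH-16 is a homeodomain transcription factor of the Engrailed family, a family known for patterning epidermis and nervous system in many animals, and in the worm it is known for its role in the seam cells of the lateral epidermis. Chromosome V is the largest worm chromosome. The autosomes of this species have a gene-dense centre in which crossing over is rare, flanked by arms with more repeats and more crossing over, and the arms of V are known for large families of chemoreceptor genes.

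The study is a ChIP-seq experiment, in which chromatin bound by a tagged protein is pulled down and sequenced. The 2 ChIP libraries came from pull-downs with antibodies against GFP, and the 2 Input libraries from lysate set aside without a pull-down. All 4 libraries were made from L2 hermaphrodites of strain OP82, grown at 20 °C. This strain has the unc119(ed3) mutation and the transgene wgIs82, which holds ceh-16 fused to TY1, EGFP and FLAG tags together with a copy of unc119. Both groups therefore carry the same mutation, the same ceh-16 transgene, introduced by biolistic transformation, and the same added unc119. Per the labels, the transgene was reported to follow the expression pattern of ceh-16. The labels' protocols describe whole worms, so the peaks give no cell type. The Input libraries enter no comparison below, and their values are not analysed here. Nothing in the labels says that replicates 1 and 2 were separate cultures, and the spread between them may therefore be technical.

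Each peak has a start, an end and a q-value given by the authors, with smaller q-values for stronger calls. Read depth is unknown, and the q-value depends on it. Positions refer to the WormBase WS220 build. Peaks are given without gene names or sequence, since neither an annotation nor a genome of that build was used. The comment lines on liftover name no peak on V in any list. The list of replicate 1 placed 176 peaks on V and that of replicate 2 placed 149. The V peaks covered 164.9 kb when combined, and 84.2 kb in replicate 1 and 70.4 kb in replicate 2 alone.

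Chromosome V held 18.5% of the combined peaks (95% exact binomial interval 16.8 to 20.4%), against 21.0% of the length between the first and the last combined peak summed over the chromosomes. Its share was 17.3% (15.0 to 19.8%) in the replicate 1 list and 19.0% (16.3 to 21.9%) in the replicate 2 list. The combined peaks on V ran from 8103 to 20852245, a span of 20.8 Mb, at 16.4 peaks per Mb. The other chromosomes together had 19.2 peaks per Mb. In the order of density V stood between chromosome III at 17.2 and chromosome I at 12.2 peaks per Mb. Chromosome X had 24.5, II had 21.5 and IV had 19.7. These intervals cover counting error of peaks alone and treat neighbouring peaks as independent, which they may not be.

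The peaks of V were concentrated in the centre of the chromosome. With the left arm ending at 5.897 Mb and the right arm beginning at 16.550 Mb, the left arm held 69 peaks, the centre 240 and the right arm 33. This was 20.2% of the V peaks in the left arm (95% exact binomial interval 16.1 to 24.8%), which makes up 28.3% of the span. The centre held 70.2% (65.0 to 74.98%) on 51.1% of the span, and the right arm held 9.65% (6.74 to 13.3%) on 20.6%. The densities were 11.7 peaks per Mb in the left arm, 22.5 in the centre and 7.67 in the right arm.

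Both replicates had the same order. In replicate 1 the left arm, centre and right arm had 32, 128 and 16 peaks, or 5.43, 12.0 and 3.72 peaks per Mb. In replicate 2 they had 30, 109 and 10 peaks, or 5.09, 10.2 and 2.32 peaks per Mb. The centre had 72.7% of the V peaks in replicate 1 and 73.2% in replicate 2. No midpoint lay close to a boundary on the scale of a peak. The nearest peaks to the left boundary had midpoints 52.4 kb on its left (5844392 to 5844778, q = 0.000265) and 103.5 kb on its right (6000306 to 6000788, q = 0.000120). At the right boundary the distances were 148.3 kb on its left (16401550 to 16401862, q = 1.55e-06) and 245.1 kb on its right (16794933 to 16795289, q = 0.00105).

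The distribution over arms and centre differed from that of the other chromosomes pooled, with a larger share in the centre of V and a smaller share in its right arm. The other chromosomes were cut at the same fractions of their own span, since boundaries were given for V alone. The arms and centres named for them, X included, are such parts and not domains defined for those chromosomes. The centre held 70.2% of the peaks on V and 58.4% on the other 5. The difference was 11.8 percentage points (adjusted p = 0.000303, Fisher's exact test, two-sided, with Benjamini-Hochberg adjustment over 6 tests). The right arm held 9.65% on V and 17.7% on the other 5, which differed by -8.01 percentage points (adjusted p = 0.000520, Fisher's exact test). The left arm, with 20.2% on V and 24.0% on the other 5, did not pass (difference -3.80 percentage points, Fisher's exact test, adjusted p = 0.275). The shares of the parts of a chromosome add up to the whole, so these tests depend on each other. They count peaks as independent and leave out the spread among the other 5 chromosomes. Centre shares there ran from 53.2% on X to 68.8% on II. The boundaries and tests were chosen with earlier results of these data known. With close peaks joined and each group counted once, the differences were 10.9 points in the centre (adjusted p = 0.00652) and -6.71 points in the right arm (adjusted p = 0.0378) by the same exact test. Each of these was adjusted in place of its own ungrouped test, with the rest of the 6 tests left ungrouped. Peak density in the centre was 22.5 per Mb on V and 22.0 per Mb on the other 5. In the arms it was 11.7 on V against 16.3 on the other 5 on the left, and 7.67 on V against 16.5 on the other 5 on the right. These densities were not tested.

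The concentration in the centre was not a feature of V alone. Chromosome II had 68.8% of its peaks in the centre (95% exact binomial interval 63.5 to 73.8%), which overlaps the interval of V. Its densities were 8.83, 28.9 and 20.3 peaks per Mb in the left arm, centre and right arm, so on II it was the left arm that was sparse. The centre shares of the remaining chromosomes were 57.7% on III, 57.1% on I, 55.9% on IV and 53.2% on X. The right arm of V had the lowest density of the 18 chromosome parts in the combined list, with the left arm of II next at 8.83 and the right arm of I at 9.75 peaks per Mb. It was also the lowest in the lists of both replicates, at 3.72 and 2.32 peaks per Mb, where the right arm of I had 4.23 and 2.60. These values rest on few peaks, 16 and 10 on V and 13 and 8 on I. Among the combined peaks met in both replicates, the right arm of V was not the lowest. It had 1.16 peaks per Mb there, against 0.975 in the right arm of I. Differences between V and single chromosomes were not tested.

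**Figure D1:**
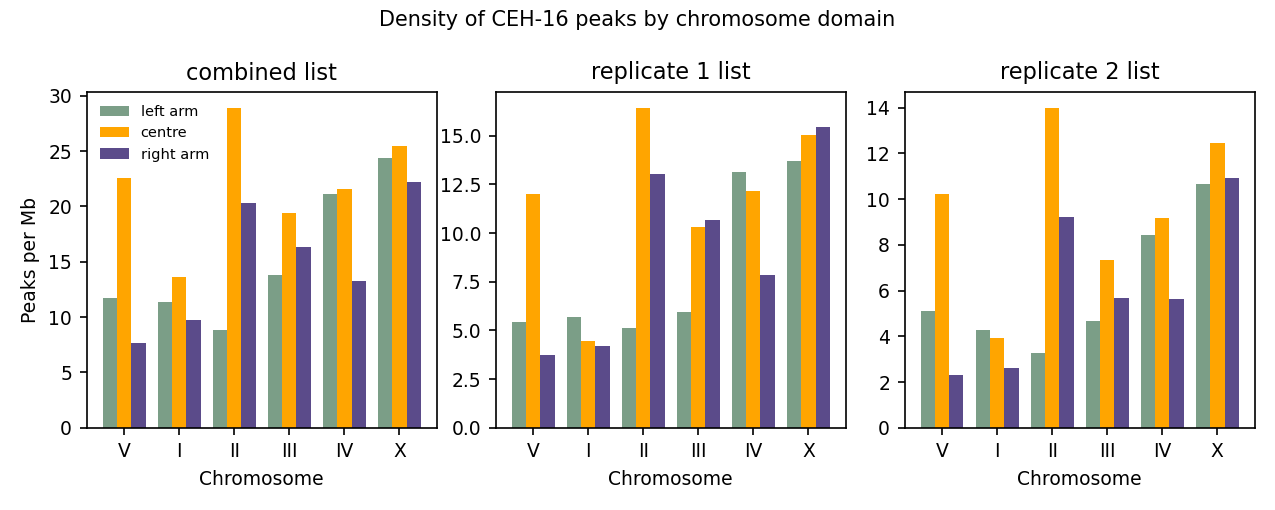
Peaks per Mb in the left arm, centre and right arm of V and of the other chromosomes, for the combined list and for each replicate list, with 1 bar for each part and a separate vertical scale in each panel. On V the centre bar is the tallest in all 3 panels and the right arm bar the shortest, at 7.67, 3.72 and 2.32 peaks per Mb.

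By megabase, V was uneven within the centre as well. Over 21 windows of 1 Mb, the combined list had a median of 14 peaks, with 5 at the lowest and 32 at the highest. The 81 megabases of the other chromosomes had a median of 19, from 6 to 50. The windows with most peaks on V were 8 to 9 Mb with 32, and 6 to 7 Mb and 11 to 12 Mb with 31 each. The window from 7 to 8 Mb, between a pair of these, had 9 peaks, the fewest of any window wholly inside the centre. The fewest on the whole chromosome were 5, in both 17 to 18 Mb and 18 to 19 Mb, followed by 6 in both 2 to 3 Mb and 3 to 4 Mb.

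The replicate lists had similar profiles. The window from 8 to 9 Mb had the most peaks in each, with 20 in replicate 1 and 19 in replicate 2. From 2 to 3 Mb neither replicate had a peak, and all 6 combined peaks there were met by no replicate peak. From 3 to 4 Mb replicate 1 had 3 peaks and replicate 2 had 0, and from 17 to 18 Mb the counts were 2 and 0. Over the 21 windows the counts of the replicates had a Spearman's rho of 0.944 and a Pearson's r of 0.902, given as a description, since neighbouring windows lie on the same chromosome and both lists come from the same strain. The replicates differed most from 6 to 7 Mb, with 17 peaks in replicate 1 and 10 in replicate 2, and from 14 to 15 Mb, with 16 and 10. The left end of V, from 0 to 1 Mb, had 19 combined peaks and 8 in each replicate, more than any other window of the arms in the combined list.

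**Figure D2:**
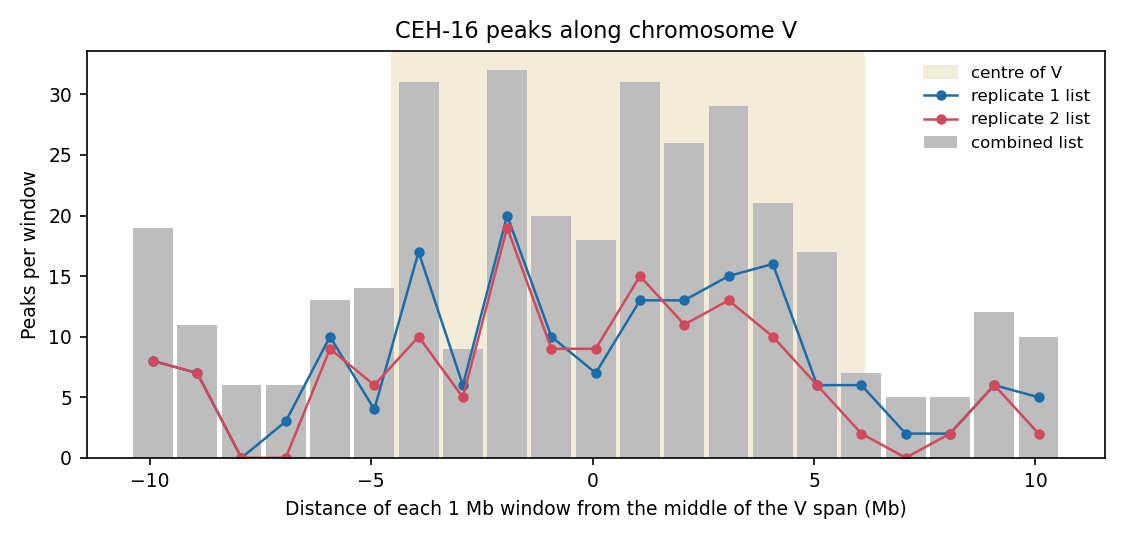
Number of peaks in each 1 Mb window of V against the distance of the window from the middle of the V span, with bars for the combined list, points joined by lines for replicates 1 and 2, and shading over the centre. Both replicate lines reach their highest counts, 20 and 19, in the window that has 32 combined peaks.

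Long stretches of V had no peak. Of 341 distances between neighbouring combined peaks on V, 25 were 200 kb or longer, or 7.33%, and they made up 8.66 Mb, or 41.6% of the V span. On the other 5 chromosomes 69 of 1501 distances, or 4.60%, were that long. The share on V lay below that on I (11.0%) and above those on IV (5.31%), III (3.86%), II (3.37%) and X (2.61%). Stretches of 200 kb or longer made up 42.6% of the span on I, 29.8% on IV, 25.5% on II, 16.9% on III and 15.0% on X. By midpoint, 10 of the 25 long stretches lay in the left arm (3404 kb in all), 6 in the centre (1679 kb) and 9 in the right arm (3581 kb). The centre, with 10.7 Mb, was longer than both arms together. These shares were not tested.

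The longest stretch ran from 2672987 to 3315324 in the left arm, 642.3 kb without a combined peak. The fourth longest, from 2068428 to 2600631 (532.2 kb), lay just to its left. The other stretches among the 5 longest were in the right arm, where they ran from 18020936 to 18637545 (616.6 kb), from 17236636 to 17784675 (548.0 kb) and from 16795290 to 17236438 (441.1 kb). Neither replicate had a peak inside any of these 5 stretches. Few replicate peaks could lie there, because the stretches were chosen for having no combined peak. On V, 168 of 176 replicate 1 peaks and 148 of 149 replicate 2 peaks met a combined peak. The stretch that ended at 18637545 stopped at one of the strongest peaks of the chromosome, described below with the right arm.

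Between these stretches peaks lay close together. The shortest distance between neighbours was 203 bp, the median 21353 bp, and the central 50% of the distances ran from 2878 to 72914 bp. On the other 5 chromosomes the median was 22692 bp, and the central 50% ran from 3670 to 72855 bp. Distances of 5 kb or less made up 31.1% of those on V (106 of 341) and 28.4% of those on the other 5 (426 of 1501). Distances under 1 kb made up 14.4% on V and 10.7% on the other 5. Chromosome II had a larger share of 5 kb or less than V, at 31.3%. V thus had more of its distances under 1 kb and at 200 kb or more than the other 5 pooled. It had fewer between 10 and 50 kb, with 25.5% on V and 31.8% on the other 5. It also had fewer from 1 to 5 kb (16.7% against 17.6%) and from 100 to 200 kb (10.6% against 12.0%), but more from 50 to 100 kb (17.9% against 15.6%). These differences were not tested. Within V the median distance was 26.1 kb in the left arm, 16.5 kb in the centre and 57.4 kb in the right arm.

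**Figure D3:**
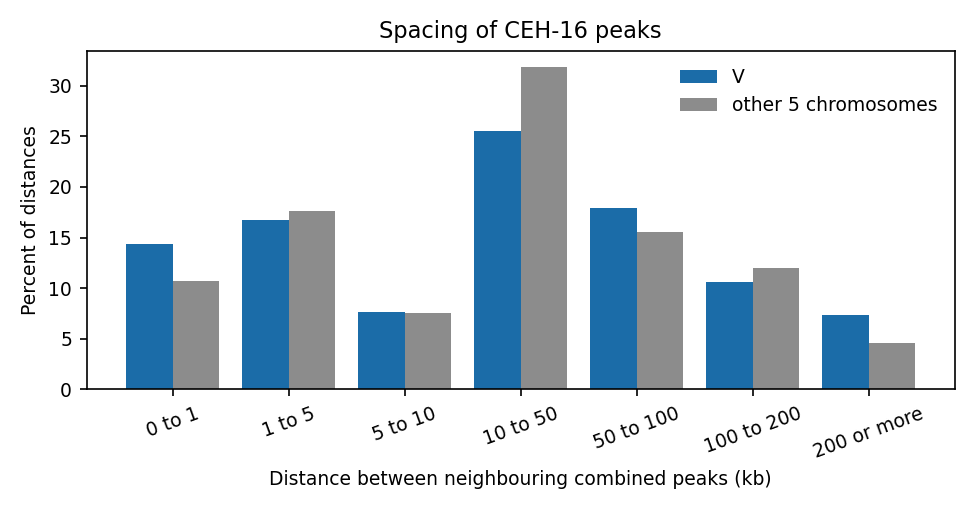
Percent of the distances between neighbouring combined peaks that fall in each length class in kb, for V (341 distances) beside the other 5 chromosomes pooled (1501 distances). V has the taller bar under 1 kb (14.4% on V, 10.7% on the others) and at 200 kb or more (7.33% on V, 4.60% on the others).

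Joining peaks up to 5 kb apart gave 236 groups on V, of which 178 were single peaks. The other 164 peaks, or 48.0%, were in groups of 2 or more, against 45.6% on the other 5 chromosomes pooled and 48.3% on II. There were 28 groups of 2 peaks, 19 of 3, 7 of 4, 1 of 5 and 3 of 6. The share of peaks in groups was 40.6% in the left arm, 52.5% in the centre and 30.3% in the right arm. With a fixed join of 5 kb this share rises with peak density by construction, and the densities of the parts had the same order.

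Among the groups of 5 or more peaks, the one with the smallest q-value lay in the left arm, from 4495124 to 4509964. Its 6 peaks covered 33.4% of 14841 bp, and 4 of them met both replicates. The peak from 4506497 to 4508629 had a q-value of 6.00e-36 and the one from 4498984 to 4500150 had 1.07e-24, while the weakest of the group had 0.00125. The second group of 6, from 8660291 to 8669116, began with peaks of q = 7.81e-20 and 2.92e-18. Both were met by a single replicate 1 peak, from 8660503 to 8661863, which was the strongest replicate 1 peak of V (q = 3.38e-26). Replicate 2 had a separate peak for each, at 3.50e-07 and 4.45e-07. Here the combined list split what replicate 1 had as 1 region.

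The third group of 6 ran from 12291621 to 12304394, with q-values from 2.85e-13 to 0.000223. Of its peaks, 3 met both replicates, 1 met replicate 1 only and 2 met replicate 2 only. The group of 5, from 13646047 to 13659007, had q-values from 2.21e-12 to 0.00115. It had 1 peak that met both replicates, 3 that met replicate 1 only and 1 that met neither. Between 27.8% and 33.4% of the length of each of the 4 groups was covered by peaks.

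The strongest peak of V ran from 14506627 to 14507612 in the centre (986 bp), and its combined q-value was 9.26e-39. In replicate 1 it ran from 14506675 to 14507577 (q = 2.09e-19). In replicate 2 it ran from 14506675 to 14507551 (q = 5.39e-22) and was the strongest peak of V. It ranked 12th in the whole combined list, so none of the 10 strongest peaks of the genome lay on V. V held 3 of the 20 strongest, 14 of the 100 strongest and 82 of the 500 strongest (16.4%, 95% exact binomial interval 13.3 to 19.9%). Over the whole combined list its share was 18.5%.

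The 10 strongest V peaks that met both replicates had combined q-values from 9.26e-39 to 4.98e-21 and widths from 500 to 3299 bp. The left arm held 3 of them, the centre 6 and the right arm 1. In 6 of the 10, both replicates placed the region among their 20 strongest V peaks. These included the peak from 10716890 to 10717801 (combined q = 1.19e-26, 1.61e-14 in replicate 1 and 4.93e-12 in replicate 2) and the one from 13371116 to 13372078 (combined q = 1.23e-22, 1.34e-14 in replicate 1 and 5.95e-09 in replicate 2). They also included the narrowest of the 10, from 5424967 to 5425466 (combined q = 4.98e-21, 3.10e-10 in replicate 1 and 3.82e-11 in replicate 2). Here and below, the q-value of a replicate is that of its peak with the largest overlap.

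The 5 widest V peaks were all among these 10, and the replicates split several of them. The widest, from 6226710 to 6230008 (3299 bp), met 3 peaks in replicate 1 and 2 in replicate 2. Its combined q-value was 8.04e-22, while the largest overlap reached 6.49e-06 in replicate 1 and 1.07e-05 in replicate 2. It followed, after 229 bp, the second widest, from 6223670 to 6226480 (2811 bp, combined q = 2.42e-26). That peak was a single region of 2816 bp in replicate 2 (q = 6.26e-13) and met 2 peaks in replicate 1. The peak from 8038847 to 8041018 (2172 bp, combined q = 4.35e-31) met 2 peaks in each replicate. The remaining members of the 5 widest were the right arm peak described next and the left arm peak from 4506497, which was 2133 bp wide when combined and 2124 bp in replicate 1, and met 2 peaks in replicate 2.

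In the right arm 5 peaks met both replicates, and they are named here after their values were seen. The strongest, from 18637546 to 18639933 (2388 bp), had a combined q-value of 6.87e-30 and stood alone, 616610 bp from the peak on its left and 267676 bp from the peak on its right. The replicates differed there, with a q-value of 8.09e-22 in replicate 1, the third smallest on V, against 0.000253 in replicate 2, where the largest overlap ranked 63rd of 149 and 2 peaks were met. The next ran from 19428988 to 19429993 (combined q = 2.77e-19), from 19522537 to 19523118 (1.09e-11) and from 20778095 to 20779120 (6.43e-11). All 3 had the smaller q-value in replicate 1. The fifth, from 20422793 to 20423062, was weak in all lists, at 3.92e-05 when combined, 0.00863 in replicate 1 and 0.00974 in replicate 2.

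Of the 342 V peaks, 94 met a peak in each replicate list, or 27.5% (95% exact binomial interval 22.8 to 32.5%). Over all chromosomes the share was 30.0%. A further 70 V peaks met replicate 1 only (20.5%, against 21.8% over all chromosomes), 46 met replicate 2 only (13.5%, against 11.3%) and 132 met neither (38.6%, against 36.9%). V did not differ from the other 5 chromosomes beyond the threshold in the share met in both, with 27.5% on V and 30.6% on the others (difference -3.13 points, adjusted p = 0.401, Fisher's exact test, two-sided). The same held for the share met in neither, with 38.6% on V and 36.5% on the others (difference 2.14 percentage points, Fisher's exact test, adjusted p = 0.457). These p-values do not show that the shares are equal. A peak met in both need not have replicate peaks that overlap each other. The combined peak from 6221047 to 6221932 met a replicate 1 peak from 6221516 to 6221752 and a replicate 2 peak from 6221097 to 6221482, which do not overlap.

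Within V, the share met in both was 29.2% in the centre and 23.5% in the arms, and the difference of 5.64 percentage points did not pass Fisher's exact test (two-sided, adjusted p = 0.425). The arms were not alike in value. In the left arm 19 of 69 peaks met both replicates (27.5%, 95% exact binomial interval 17.5 to 39.6%), and in the right arm 5 of 33 did (15.2%, 5.11 to 31.9%). In the right arms of the other 5 chromosomes pooled the share was 30.8% (25.3 to 36.8%), but on chromosome I it was lower than on V, at 10.0% (3 of 30 peaks). These shares were not tested. The 94 peaks met in both thus put 5.32% in the right arm of V, against 9.65% of all V peaks.

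**Figure D4:**
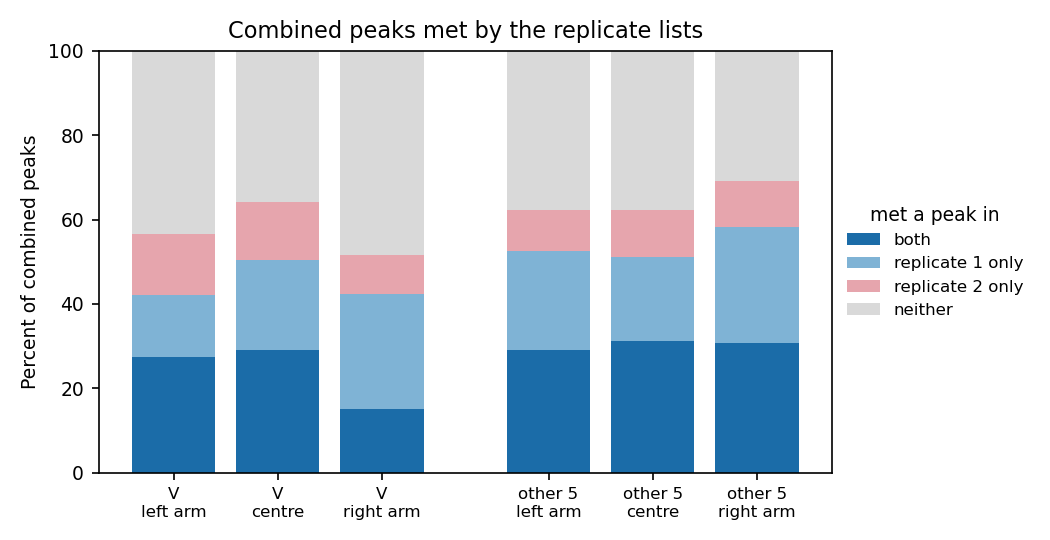
Percent of combined peaks by which replicate lists they met (both, replicate 1 only, replicate 2 only or neither), for the left arm, centre and right arm of V and of the other 5 chromosomes pooled. The right arm of V has the shortest segment for both, 15.2% of 33 peaks, and the other bars, with the other 5 chromosomes pooled, lie between 27.5% and 31.2%.

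Whether a V peak met the replicates went with its strength. In the strongest 25% of the V peaks (86 peaks, q up to 1.00e-06) 73 met both replicates, 7 met replicate 1 only, 6 met replicate 2 only and none met neither. In the second 25% the count for both was 21 of 85, and in the third and the weakest 25% it was 0. Of the weakest 25% (q from 0.00258), 73 of 86 met neither. These counts are a description, because the replicate lists have a q-value threshold of their own, which decides which weak peaks appear in them. The peaks of the other 5 chromosomes were not divided in this way. Their median q-value was 2.90e-10 for peaks met in both and 0.00300 for peaks met in neither, against 1.32e-09 and 0.00323 on V.

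Between the replicates on V, 96 of the 176 replicate 1 peaks met a replicate 2 peak (54.5%, 95% exact binomial interval 46.9 to 62.1%), against 56.0% on the other 5 chromosomes. Of the 149 replicate 2 peaks, 100 met a replicate 1 peak (67.1%, 59.0 to 74.6%), against 73.6% on the other 5. This replicate 2 share was the lowest of the 6 chromosomes, next to 69.6% on I, and the intervals of V, I and the others overlapped. These shares were not tested.

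Over the 94 V peaks met in both, the q-values of the replicates had a Spearman's rho of 0.596, and the −log10 values had a Pearson's r of 0.508. Without the pairs among the 5 strongest of either replicate, 85 pairs gave 0.529 for both. These are descriptions over peaks that share their libraries and their depth. Replicate 1 had the smaller q-value in 59 pairs and replicate 2 in 35. The combined q-value was smaller than both in 92 of 94 and larger than both in none. By its name the combined list draws on the same replicates, so its q-values are not independent of theirs. Every pair had passed the q-value threshold of both replicate lists. These counts and correlations were not compared with the other chromosomes. In the 85 peaks that met 1 peak in each replicate, the replicates' starts lay a median of 50 bp apart and their ends 48 bp apart, and in 90% the starts were within 173 bp.

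**Figure D5:**
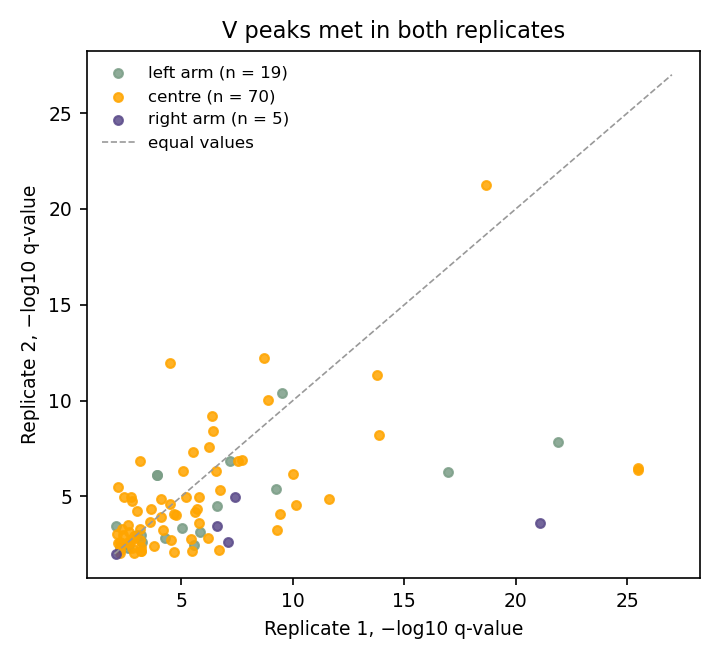
Replicate 2 against replicate 1 q-values, both as −log10, for the 94 V peaks that met both replicates, with 1 point a peak, coloured by arm or centre, and a dashed line of equal values. More points lie below the line (59) than above it (35), and the right arm point at the far right is the peak with 8.09e-22 in replicate 1 and 0.000253 in replicate 2.

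The median width of the V peaks was 377 bp in the combined list, the lowest of the 6 chromosomes, against 417.5 bp on the other 5 and 388.5 bp on IV, the next lowest. The median was 406 bp on V and 419 bp on the other 5 in replicate 1, and 387 bp on V and 414.5 bp on the other 5 in replicate 2. In the replicate lists V was not the lowest, since IV had 395 bp in replicate 1 and 369 bp in replicate 2. Within V the combined medians were 373 bp in the left arm, 379 bp in the centre and 307 bp in the right arm. Width went with strength, with a median of 552 bp in the strongest 25% of the V peaks and 302 bp in the weakest. Spearman's rho between width and q-value was -0.564 over the 342 peaks, and -0.561 over the combined peaks of the other 5 chromosomes. Of the 21 V peaks wider than 1000 bp, 17 met both replicates. Of the 9 narrower than 200 bp, 8 met neither. A wider peak has more room for an overlap of 1 bp by construction, and these counts were not compared with the other chromosomes. These differences in width were not tested.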

How the data were processed

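The authors called the peaks with PeakSeq and deposited a list per ChIP replicate and a combined list in WS220, per the file headers, which also record a liftover from another build. The sources used here do not give the aligner, the earlier build or the way the lists were combined. The only deposited value of a peak is its q-value, below 0.01 in every peak of the 3 lists; read depth is unknown, and so is the precision that depth would give. The members, arm boundaries, tests and lists were chosen with earlier results of these data known.

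Peaks were placed by midpoint, and meeting meant an overlap of at least 1 bp. The span of a chromosome runs between its outermost combined peaks. Distances run from the end of a peak to the start of the next. Regions named are the 10 strongest met in both, the 5 widest, groups of 5 or more, the 5 longest stretches, the fullest and emptiest megabases, the strongest peaks met in 1 replicate or neither, and replicate peaks outside the combined list. Shares carry exact binomial (Clopper-Pearson) intervals, and 6 differences were tested by Fisher's exact test, two-sided, with Benjamini-Hochberg adjustment and a threshold of 0.05. Both count neighbouring peaks as independent. Alternatives were other overlap rules, the stronger 50% of each list, grouped peaks, other arm cuts, the autosomes alone and each replicate alone or left out. Calculations used Python 3.11.15, NumPy 2.4.6, pandas 2.3.3 and SciPy 1.17.1, with figures from matplotlib 3.10.9, and the code was tested on simulated data.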

Additional observations from a re-analysis of the deposited data

How the results depend on the processing

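Of 65 alternative values for 16 results, 53 stayed within the margin set or gave the same direction and call, and 12 moved. None reversed, gained or lost a call. The centre difference between V and the other 5 chromosomes ranged from 9.79 (without X) to 16.4 points (replicate 1 list alone), and the right arm difference from -10.9 (replicate 2 list alone) to -6.71 points (groups counted once). The share of V peaks met in both was 22.8% with midpoints within 200 bp, and it was 40.9% to 48.0% with 1 replicate left out of the rule, which is looser by construction. The right arm share of V was 5.32% among peaks met in both and 6.71% in the replicate 2 list; the cause was not tested. Joining up to 2 kb or 10 kb put 33.9% or 58.8% of V peaks in groups, by construction. No paired analysis was possible because the comparisons use ChIP libraries only. Since depth is unknown, the lengths of the replicate lists cannot be compared.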

Other observations

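Some neighbouring V peaks were each met by a different replicate. In the left arm the peak from 596956 to 597270 (combined q = 1.78e-08) met replicate 1 only, and the peak from 597846 to 598170 (combined q = 6.93e-11), 575 bp further on, met replicate 2 only. These were the second strongest V peak met in replicate 1 only and the strongest met in replicate 2 only. The strongest met in replicate 1 only, from 13374530 to 13374909 (combined q = 8.36e-09), lay 2451 bp to the right of one of the 10 strongest V peaks, and the peak from 5426329 to 5426678 (combined q = 1.13e-07, replicate 2 only) lay 862 bp to the right of another. Away from such neighbours, the peak from 9789819 to 9790350 (combined q = 1.01e-07) met replicate 1 only and the peak from 10536662 to 10537213 (combined q = 5.63e-09) met replicate 2 only.

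The strongest V peaks met in neither replicate had combined q-values of 6.34e-05 (17905789 to 17906177), 7.54e-05 (6785159 to 6785448) and 9.27e-05 (5776974 to 5777237), and the strongest of them ranked 149th of the 342 on V. The narrowest V peaks, 24 bp (19610654 to 19610677) and 29 bp (12124547 to 12124575), named after their values were seen, also met neither.

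In the other direction the combined list left out 8 of the 176 replicate 1 peaks on V and 1 of the 149 replicate 2 peaks. The share of replicate 1 peaks that met a combined peak was 95.5% on V and 96.2% on the other 5 chromosomes. For replicate 2 peaks it was 99.3% on V and 99.5% on the other 5. The strongest left out were 15094381 to 15094801 (q = 0.00361), 1943549 to 1943892 (q = 0.00543) and 1021654 to 1021853 (q = 0.00556) in replicate 1, and 8631398 to 8631681 (q = 0.00600) in replicate 2.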
